A study of Homo sapiens with 16 samples.

Results

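The sirtuins are the class III deacetylases, and their 7 genes, SIRT1 to SIRT7, were taken by symbol from a table of 35993 gene symbols. All 7 had enough reads to be tested, among 21297 genes that were. Expression was read by RNA-seq in 4 established cell lines of human bladder cancer, namely TCCSUP, RT112, J82 and 253J, which the labels give as WT (wild type). Each line was kept for 48 h with CM-1758, an inhibitor of histone deacetylases (HDACs) given at the IC50 of that line, or with vehicle (0.01% DMSO), called control here. Each of the 8 groups held 2 libraries, 16 in all. The dose was set separately in each line, and TCCSUP was grown in another medium (EMEM) than the other lines (DMEM), so line, dose and medium cannot be told apart.

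Unlike the zinc-dependent HDACs, sirtuins remove acetyl and other acyl groups from lysines in a reaction that consumes NAD, so their activity is tied to the supply of that cofactor. SIRT1, SIRT6 and SIRT7 are mainly nuclear and act on histones, transcription factors and, for SIRT7, the transcription of ribosomal RNA genes in the nucleolus. SIRT2 is mainly cytoplasmic and deacetylates tubulin, while SIRT3, SIRT4 and SIRT5 reside in mitochondria. In tumours of the urothelium, as in other carcinomas, the family has been studied for its part in stress responses, metabolism and genome stability.

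The libraries held 22506431 to 32537104 counts each, and 7 small noncoding RNA genes took 9.58% to 21.3% of them. Scaling by library size alone in place of TMM raised the median log2 fold change of all genes by 0.14 to 0.31, depending on the line, and the changes below are relative to TMM. Of 16 urothelial and epithelial markers, 15 exceeded 1 CPM (counts scaled to the library total, with TMM) in RT112 control cells, but 7 in 253J, 8 in J82 and 10 in TCCSUP. UPK3A had no count in any control library, and UPK2 and KRT20 had none in 253J, J82 and TCCSUP control cells. The summed epithelial markers had 1340 to 1460 CPM in TCCSUP control cells and 519 to 602 CPM with CM-1758, where 5 of the 16 were higher and 6 lower. In 253J the sums were 3190 to 4340 against 1880 to 2370 CPM (4 higher, 4 lower), in RT112 8240 to 8640 against 6310 to 7090 CPM (2 higher, 5 lower) and in J82 5970 to 8100 against 6970 to 7890 CPM (6 higher, 1 lower). Their part in the sirtuin results was not tested. Of 9 markers of blood, endothelial, muscle and liver cells, 1 to 3 exceeded 1 CPM in a control group and 2 to 4 in a treated group, with sums between 6.9 and 68.6 CPM.

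Start sites of 6 of the 7 sirtuins, 9 in all, were in the RefSeq promoter set (build GRCh38.p14). The 250 bases before the start are shown for SIRT4, the sirtuin that rose in each line, and for SIRT1 and SIRT5 (first start). The responses of SIRT1 and SIRT5 differed between lines, as did that of SIRT2, whose promoter is not shown. The motifs searched on both strands were a cyclic AMP response element (TGACGTCA), an E-box (CACGTG), a GC box (GGGCGG) and a CCAAT box (CCAAT), and each match stands in capitals.
SIRT4, first start, chr12:120291939-120292188, plus strand: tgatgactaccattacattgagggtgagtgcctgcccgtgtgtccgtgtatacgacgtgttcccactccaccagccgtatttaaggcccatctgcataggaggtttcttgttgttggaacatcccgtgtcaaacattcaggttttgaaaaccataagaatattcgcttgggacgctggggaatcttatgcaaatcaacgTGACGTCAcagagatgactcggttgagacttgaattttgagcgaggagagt
SIRT4, second start, chr12:120302071-120302320, plus strand: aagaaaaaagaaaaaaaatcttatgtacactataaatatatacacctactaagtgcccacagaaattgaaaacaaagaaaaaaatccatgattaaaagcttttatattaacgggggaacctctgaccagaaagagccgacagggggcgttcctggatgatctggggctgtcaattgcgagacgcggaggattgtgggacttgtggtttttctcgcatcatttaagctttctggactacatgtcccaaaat
SIRT1, chr10:67884406-67884655, plus strand: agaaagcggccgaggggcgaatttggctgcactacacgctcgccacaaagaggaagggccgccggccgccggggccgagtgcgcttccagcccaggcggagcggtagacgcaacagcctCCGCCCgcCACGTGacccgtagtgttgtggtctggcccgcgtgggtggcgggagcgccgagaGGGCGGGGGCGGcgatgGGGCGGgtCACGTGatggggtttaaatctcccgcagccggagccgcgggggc
SIRT5, first start, chr6:13574279-13574528, plus strand: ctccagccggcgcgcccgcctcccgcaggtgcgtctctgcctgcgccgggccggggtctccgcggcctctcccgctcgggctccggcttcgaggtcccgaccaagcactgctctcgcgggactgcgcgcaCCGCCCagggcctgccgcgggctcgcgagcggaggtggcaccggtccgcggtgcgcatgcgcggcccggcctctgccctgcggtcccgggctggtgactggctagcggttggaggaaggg

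The cyclic AMP response element of the first SIRT4 start began 51 bases before the start. It was present in 1.65% of 35116 promoters of the same length and in no other sirtuin promoter of the set. The second SIRT4 start held none of the 4 motifs. The SIRT1 promoter held 2 E-boxes and 4 GC boxes, a pair of which adjoin. At least 1 E-box was present in 6.34% of promoters, and at least 1 GC box in 42.6%. SIRT5 held 1 GC box at its first start and 2 at its second, which is not shown. In CG dinucleotides the promoters also differed, with 32 in SIRT1 and 36 at the first SIRT5 start, against 12 and 7 at the SIRT4 starts and a median of 11 over all promoters. CG counts were lower than that of SIRT1 in 90.5% of promoters. A CCAAT box, present in 32% of promoters, was found in SIRT2 and at 1 of the 2 starts of SIRT6. Which start was used in these cells was not measured by counts per gene.

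In control cells the transcripts of the family spanned a wide range. Per kilobase of exon (CPM per kb), SIRT7 was the highest sirtuin and SIRT4 the lowest in all 4 lines. SIRT7 stood at 16.3 ± 1.47 CPM per kb in 253J (SD, n = 2), 21.9 ± 1.59 in J82, 18.6 ± 2.36 for RT112 and 13.3 ± 0.799 in TCCSUP. The level of SIRT4 was 1.53 ± 0.0175 CPM per kb in 253J, 0.673 ± 0.0641 in J82, 0.548 ± 0.0526 for RT112 and 0.801 ± 0.154 in TCCSUP. SIRT2 was second in 253J, J82 and RT112, while SIRT1 took that place in TCCSUP at 9.07 ± 1.11 CPM per kb. SIRT7 held 34% to 39.8% of the summed sirtuin CPM per kb of control cells, and SIRT4 held 1.15% to 3.74%. The order among SIRT1, SIRT3, SIRT5 and SIRT6 is less firm, since it depends on the exon length used, which came from an annotation of another genome build.

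Between the lines, the control level of 6 of the 7 sirtuins differed (edgeR quasi-likelihood F test of 3 contrasts, Benjamini-Hochberg adjusted p under 0.05), where 78.8% of all genes did. The exception was SIRT6, at an adjusted p of 0.102. SIRT5, a desuccinylase and demalonylase of mitochondrial enzymes, had the smallest adjusted p, 2.55e-07. Its control level was 29 ± 0.642 CPM in RT112 and 22.6 ± 2.61 in J82 (SD, n = 2), against 9.32 ± 1.97 in 253J and 7.64 ± 0.51 in TCCSUP. Neither RT112 and J82 (adjusted p = 0.104) nor 253J and TCCSUP (adjusted p = 0.223) differed past the limit, while each of the first pair was above each of the second. For single pairs of lines, the share of all genes that differed was 53.1% for 253J and J82, 54.3% for 253J and RT112, 53.1% for 253J and TCCSUP, 52.1% for J82 and RT112, 48% for J82 and TCCSUP and 51.5% for RT112 and TCCSUP.

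SIRT1, which deacetylates FOXO factors and histones, ran in control cells from 41.3 ± 5.07 CPM in TCCSUP through 31.1 ± 1.97 in J82 and 24.5 ± 0.319 in RT112 to 18.5 ± 3.82 in 253J. J82 and RT112 were the only neighbours in that order that did not differ (adjusted p = 0.0752). SIRT3, the main deacetylase of mitochondria, was highest in J82 at 11.7 ± 0.24 CPM and lowest in RT112 at 5.37 ± 0.264 CPM, with 253J and TCCSUP between them and not distinguishable from each other (adjusted p = 0.714). SIRT4 was higher in 253J than in each other line (adjusted p between 0.00157 and 0.0258), and the other lines did not differ from each other past the limit. SIRT2 and SIRT7 were lowest in TCCSUP, where SIRT7 lay at 23.2 ± 1.39 CPM against 38.2 ± 2.76 in J82 (adjusted p = 0.000626). TCCSUP and 253J did not differ past the limit in either gene.

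**Figure D1:**
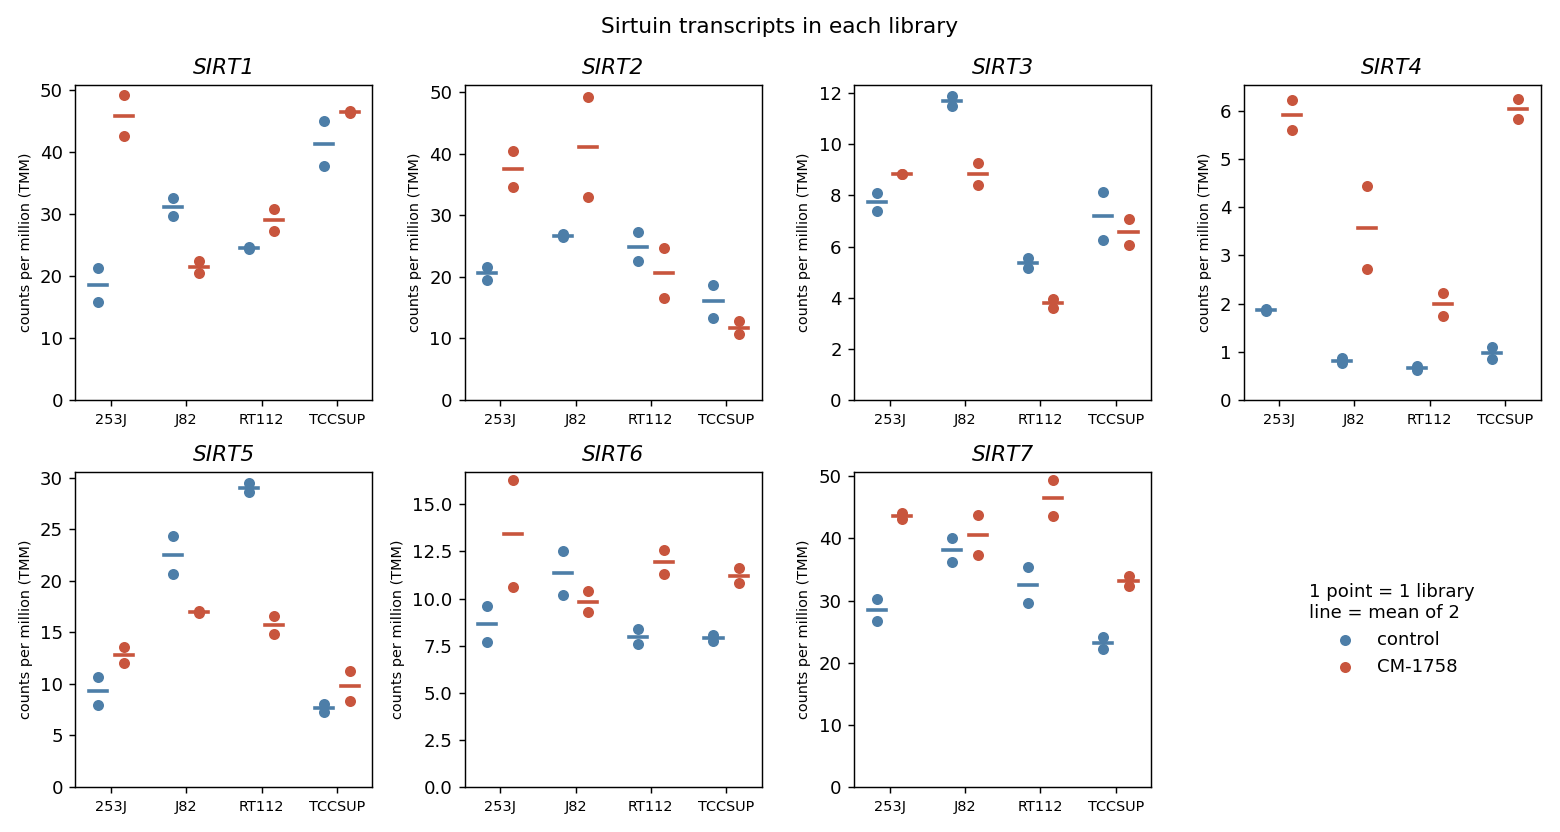
CPM (TMM-scaled, linear axis from 0) of each sirtuin in every library, with control in blue and CM-1758 in red for the 4 cell lines. Each point is 1 library and each short line the mean of 2. The treated points of SIRT4 lie above the control points in all 4 lines, while those of SIRT1 lie above them in 253J and below them in J82.

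With CM-1758, SIRT4 transcripts rose in all 4 lines, and the other sirtuins changed in at most 3 lines. How many of all tested genes rose in all 4 lines was not counted. In bulk RNA, fewer cells of a kind and less RNA per cell cannot be told apart. In 253J, 5 sirtuins were higher and 0 lower at an adjusted p under 0.05, where 28.8% of all genes were higher and 22.4% lower. J82 had 2 higher and 1 lower, against 24% and 18.5% of all genes. In RT112 3 were higher and 1 lower, against 27.4% and 20.2%, and in TCCSUP 2 were higher and 0 lower, against 32% and 22.1%. In the mean of the 4 lines, 4 sirtuins were higher and 0 lower, where the shares of all genes were 36.9% and 25%. The median log2 fold change of the 7 sirtuins was 0.64 in 253J, -0.2 in J82, 0.24 for RT112 and 0.36 in TCCSUP, beside medians over all tested genes of 0.1, 0.05, 0.12 and 0.2.

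SIRT4 is a mitochondrial enzyme with weak deacetylase activity, known for restraining glutamate dehydrogenase by ADP-ribosylation and for removing lipoyl groups from pyruvate dehydrogenase. In 253J its level was 1.85 and 1.88 CPM in the control libraries and 6.22 and 5.6 CPM with CM-1758. J82 had 0.874 and 0.763 CPM in control and 2.72 and 4.43 CPM with CM-1758, the widest gap between treated replicates of this gene. The treated libraries lay above the control libraries in both lines. In RT112 the values were 0.621 and 0.712 CPM in control and 2.23 and 1.75 CPM with CM-1758. TCCSUP went from 1.11 and 0.842 CPM to 6.25 and 5.82 CPM. Here too the groups did not overlap, and the level of treated TCCSUP cells was close to that of treated 253J cells although the control levels differed.

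On the log2 scale SIRT4 rose by 1.66 ± 0.3 in 253J (SE, edgeR adjusted p = 0.000257), by 2.12 ± 0.32 in J82 (9.93e-05), by 1.57 ± 0.33 in RT112 (0.00136) and by 2.63 ± 0.32 in TCCSUP (7.8e-06). These are 3.17-fold, 4.36-fold, 2.98-fold and 6.17-fold increases. The rise was called in each of 24 alternative analyses of each line, with adjusted p between 1.12e-11 and 0.0186. The mean over the lines was 2 ± 0.16 (edgeR adjusted p = 3.44e-08), between 1.9 and 2.21 in the alternatives. The size of the rise did not differ between the lines past the limit (interaction adjusted p = 0.172). The largest gap, between RT112 and TCCSUP, was -1.05 ± 0.46 on the log2 scale. At a log2 fold change above 2 and an adjusted p under 0.01, SIRT4 was the 1 sirtuin called, in J82 and in TCCSUP, where 8.81% and 14.2% of all genes passed (9.43% in 253J and 11.4% in RT112, each with 0 sirtuins). The raw counts behind SIRT4 were 19 to 51 in a control library and 46 to 167 in a treated library, the lowest of the family, so its errors are the widest.

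**Figure D2:**
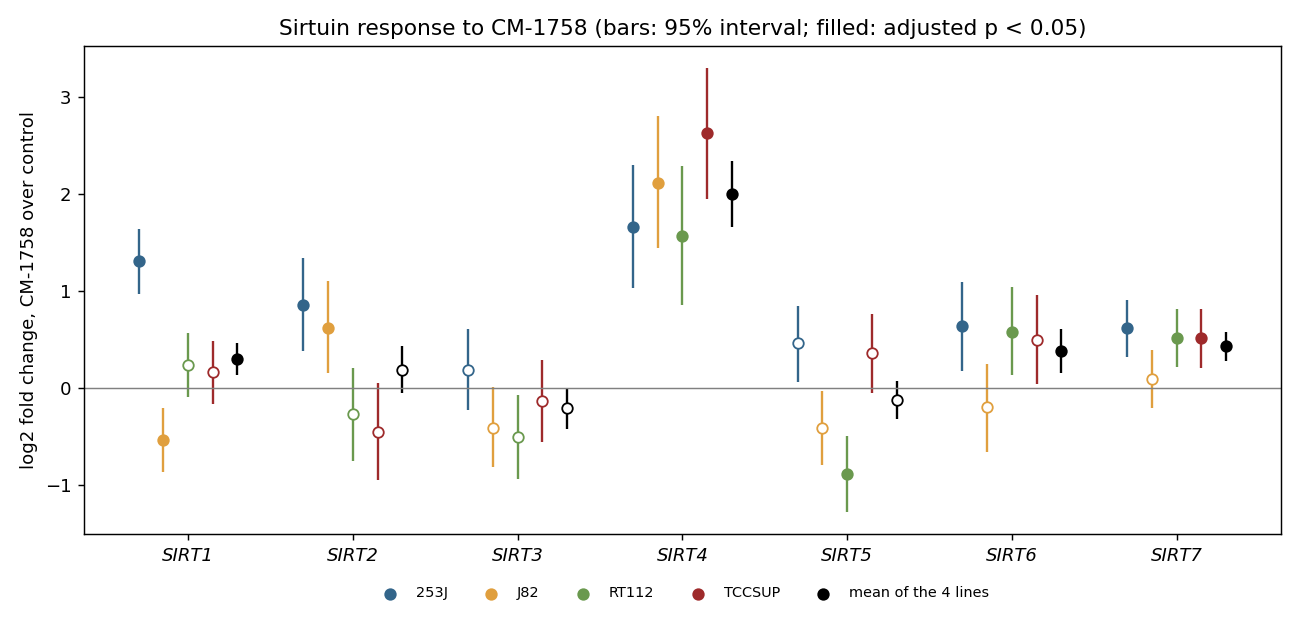
Log2 fold change of CM-1758 over control for each sirtuin in the 4 lines and in their mean, with 95% intervals, and filled points where the adjusted p is under 0.05. The 5 points of SIRT4 are all filled and lie between 1.57 and 2.63, above those of every other sirtuin in the same line.

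Among the nuclear sirtuins, SIRT1 responded in opposite directions in 253J and J82. In 253J it stood at 21.2 and 15.8 CPM in control and at 42.5 and 49.1 CPM with CM-1758. In J82 it went from 29.7 and 32.5 CPM down to 22.4 and 20.4 CPM. The groups did not overlap in either line. The control and treated levels of RT112 were 24.7 and 24.3 against 27.2 and 30.8 CPM, and those of TCCSUP were 37.7 and 44.9 against 46.3 and 46.6 CPM. SIRT1 rose in 253J by 1.31 ± 0.16 on the log2 scale (SE, edgeR adjusted p = 6.49e-06), a 2.48-fold change, and fell in J82 by 0.54 on the log2 scale (SE 0.16, adjusted p = 0.0113). Its log2 fold changes in RT112, 0.24 ± 0.15, and TCCSUP, 0.17 ± 0.15, did not pass the limit (adjusted p = 0.213 and 0.37).

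The response of SIRT1 differed between the lines (edgeR interaction adjusted p = 6.54e-05). The log2 fold change in 253J exceeded that in J82 by 1.85 ± 0.22 (adjusted p = 2.07e-05), that in RT112 by 1.07 ± 0.22 (0.00184) and that in TCCSUP by 1.14 ± 0.22 (0.00112). J82 differed from RT112 and TCCSUP as well (0.0185 and 0.0298). Over all genes, the effect differed between the lines in 51.9%, and for the pairs in 30% for 253J and J82, 30% for 253J and RT112, 28.6% for 253J and TCCSUP, 22.2% for J82 and RT112, 22.2% for J82 and TCCSUP and 27.5% for RT112 and TCCSUP. Before treatment 253J held the least SIRT1 of the lines and J82 the second most, and after it 253J and TCCSUP had 45.8 ± 4.66 and 46.4 ± 0.174 CPM. The fall in J82 was not called with library size alone (-0.39, adjusted p = 0.0525), with J82 fitted alone (-0.52, 0.0739), or without J82 control replicate 3 (-0.47, 0.0617) or J82 CM-1758 replicate 3 (-0.47, 0.0809), and its adjusted p ran from 0.00732 to 0.0809 over 24 alternatives.

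SIRT6, which deacetylates histone H3 at telomeres and at glycolytic genes, had 9.6 and 7.7 CPM in 253J control cells and 16.3 and 10.6 CPM with CM-1758. In RT112 it had 8.37 and 7.56 CPM in control and 12.6 and 11.3 CPM with CM-1758. The libraries did not overlap in these lines, but the treated pair of 253J was far apart. TCCSUP held 7.76 and 8.04 CPM in control and 10.8 and 11.6 CPM with CM-1758, and J82 held 12.5 and 10.2 against 9.27 and 10.4 CPM. SIRT6 rose in 253J by 0.64 ± 0.21 (SE, log2 scale, edgeR adjusted p = 0.0212) and in RT112 by 0.58 ± 0.21 (0.035), and was higher in the mean of the lines by 0.38 ± 0.11 (0.00582). In TCCSUP the value was 0.5 ± 0.22 (0.0612, past the limit in 8 of 24 alternatives) and in J82 -0.2 ± 0.21 (0.475). Of the libraries left out in turn, the 253J call was lost without 253J control replicate 3 (0.48, adjusted p = 0.161) and without 253J CM-1758 replicate 1 (0.3, 0.324). It held in 21 of 24 alternatives, with an adjusted p from 0.00217 to 0.324. The RT112 call was lost without any 1 of the 4 RT112 libraries (0.5 to 0.66, adjusted p 0.0626 to 0.168) and with no filter on low counts (0.57, 0.0538), in a range from 0.00808 to 0.168.

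SIRT7, a deacetylase of histone H3 that is found in the nucleolus, had the smallest errors of the family. Its levels in 253J were 30.3 and 26.7 CPM in control and 44.1 and 43.1 CPM with CM-1758. The values were 29.6 and 35.4 against 43.7 and 49.4 CPM in RT112, and 24.2 and 22.2 against 32.3 and 34 CPM in TCCSUP. In each of these lines both treated libraries were above both control libraries. J82 had 40.1 and 36.2 CPM in control and 37.3 and 43.8 CPM with CM-1758, so that the groups overlapped. The gene rose by 0.62 ± 0.14 in 253J (SE, log2 scale, edgeR adjusted p = 0.00186), by 0.52 ± 0.14 in RT112 (0.00676) and by 0.52 ± 0.14 in TCCSUP (0.00646), while J82 gave 0.09 ± 0.14 (0.664). Its mean over the lines was 0.43 ± 0.07 (5.91e-05), and no difference between the lines passed the limit (interaction adjusted p = 0.119). The RT112 call was lost without RT112 control replicate 1 (0.39, adjusted p = 0.102) or RT112 CM-1758 replicate 2 (0.42, 0.0694), and that of TCCSUP without TCCSUP control replicate 2 (0.45, 0.067). Over all alternatives these adjusted p ran from 0.000259 to 0.102 in RT112 and from 0.000197 to 0.067 in TCCSUP.

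SIRT2, the tubulin deacetylase, rose in 253J and J82. It had 19.5 and 21.6 CPM in 253J control cells and 40.4 and 34.5 CPM with CM-1758. In J82 it went from 26.5 and 26.9 CPM to 32.9 and 49.2 CPM. The treated libraries were above the control libraries in both lines, with a wide gap between the treated J82 libraries. RT112 had 27.3 and 22.5 CPM in control and 24.7 and 16.6 CPM with CM-1758, and TCCSUP had 13.4 and 18.7 against 12.8 and 10.7 CPM. The rise was 0.86 ± 0.22 in 253J (SE, log2 scale, edgeR adjusted p = 0.00467) and 0.62 ± 0.22 in J82 (0.0347), and the values of RT112 and TCCSUP, -0.27 ± 0.22 and -0.45 ± 0.23, did not pass the limit (0.341 and 0.116). The effect differed between the lines (edgeR interaction adjusted p = 0.00588), with 253J above TCCSUP by 1.31 ± 0.32 (0.0066) and above RT112 by 1.14 ± 0.32 (0.0135), and J82 above TCCSUP by 1.07 ± 0.32 (0.0263). In J82 the call was lost when either control replicate was left out (0.61 and 0.63, adjusted p = 0.1 and 0.0938), without J82 CM-1758 replicate 3 (0.3, 0.386) and with J82 fitted alone (0.64, 0.0648), in a range from 0.00496 to 0.386.

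Of the mitochondrial sirtuins beside SIRT4, SIRT5 fell in RT112, while SIRT3 passed the test in no line. SIRT5 in RT112 went from 28.6 and 29.5 CPM in control to 16.6 and 14.8 CPM with CM-1758, which took the line that held the most SIRT5 to near the treated level of J82. In J82 it had 20.7 and 24.4 CPM in control and 16.9 and 17.1 CPM with CM-1758. The groups did not overlap in either line. In 253J the values were 10.7 and 7.93 against 13.6 and 12 CPM, and in TCCSUP 7.28 and 8 against 8.31 and 11.3 CPM. SIRT5 fell in RT112 by 0.89 on the log2 scale (SE 0.18, edgeR adjusted p = 0.000944), to 0.539 of control, and this was called in 24 of 24 alternatives. Its log2 fold changes of 0.46 ± 0.19 in 253J (0.0534), -0.41 ± 0.18 in J82 (0.0805) and 0.36 ± 0.19 in TCCSUP (0.127) missed the limit. The effect differed between the lines (edgeR interaction adjusted p = 0.00126), with 253J above RT112 by 1.35 ± 0.26 (0.00113), TCCSUP above RT112 by 1.25 (SE 0.26, 0.0023), 253J above J82 by 0.87 ± 0.26 (0.0197) and J82 below TCCSUP (-0.77 ± 0.26, 0.0481). The 253J value passed the limit in 9 of 24 alternatives, with adjusted p from 0.00362 to 0.386.

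SIRT3 stood at 8.08 and 7.39 CPM in 253J control cells and at 8.83 and 8.84 CPM with CM-1758. Its level was 11.5 and 11.9 CPM against 8.41 and 9.28 CPM in J82 and 5.56 and 5.18 CPM against 3.6 and 3.97 CPM in RT112. The treated libraries of J82 and RT112 lay below the control libraries, without passing the test. TCCSUP had 8.15 and 6.24 CPM in control and 7.07 and 6.06 CPM with CM-1758. The log2 fold changes were 0.19 ± 0.2 in 253J (95% interval -0.23 to 0.61), -0.41 ± 0.19 in J82 (-0.82 to 0.01), -0.51 ± 0.21 in RT112 (-0.94 to -0.07, edgeR adjusted p = 0.0548) and -0.13 ± 0.2 in TCCSUP (-0.56 to 0.29).

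The shares of several sirtuins in the family differed between control and treated cells. The summed CPM per kb of the 7 genes was 43 and 38.9 in 253J control libraries and 73.7 and 67.7 with CM-1758. It was 57.6 and 55.5 against 55.3 and 68.7 in J82, 47.5 and 48.1 against 55.9 and 54.8 in RT112, and 38 and 40.4 against 50.1 and 50.4 in TCCSUP. The treated sums were above the control sums in 253J, RT112 and TCCSUP and overlapped them in J82. The share of SIRT4 in that sum went from 3.74% ± 0.304 to 6.86% ± 0.0961 in 253J (SD, n = 2), from 1.19% ± 0.0817 to 4.67% ± 0.893 in J82, from 1.15% ± 0.0997 to 2.95% ± 0.458 in RT112 and from 2.05% ± 0.479 to 9.87% ± 0.537 in TCCSUP. With CM-1758, the lowest sirtuin per kb was SIRT5 in 253J and TCCSUP and SIRT3 in RT112. In treated J82 cells SIRT4, at 2.94 ± 0.996 CPM per kb, and SIRT5, at 2.89 ± 0.0321, were not apart. With the length of the longest transcript SIRT4 was the lowest there, at 2.94 against 3.48 for SIRT3 and 3.88 for SIRT5. SIRT7 was the highest in all treated groups as well. In RT112 its share was 39% ± 4.59 in control and 48.2% ± 4.84 with CM-1758, while that of SIRT5 went from 10.3% ± 0.135 to 4.8% ± 0.321 and that of SIRT2 from 24.5% ± 3.56 to 17.5% ± 4.56. The share of SIRT2 was 22.2% ± 0.816 in control and 30.8% ± 4.05 in treated J82 cells, but 19.2% ± 3.67 and 11% ± 1.49 in TCCSUP. SIRT1 held 9.87% ± 1.36 in 253J control cells and 14.3% ± 2.3 with CM-1758. These shares are descriptions without a test and rest on exon lengths from another annotation.

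**Figure D3:**
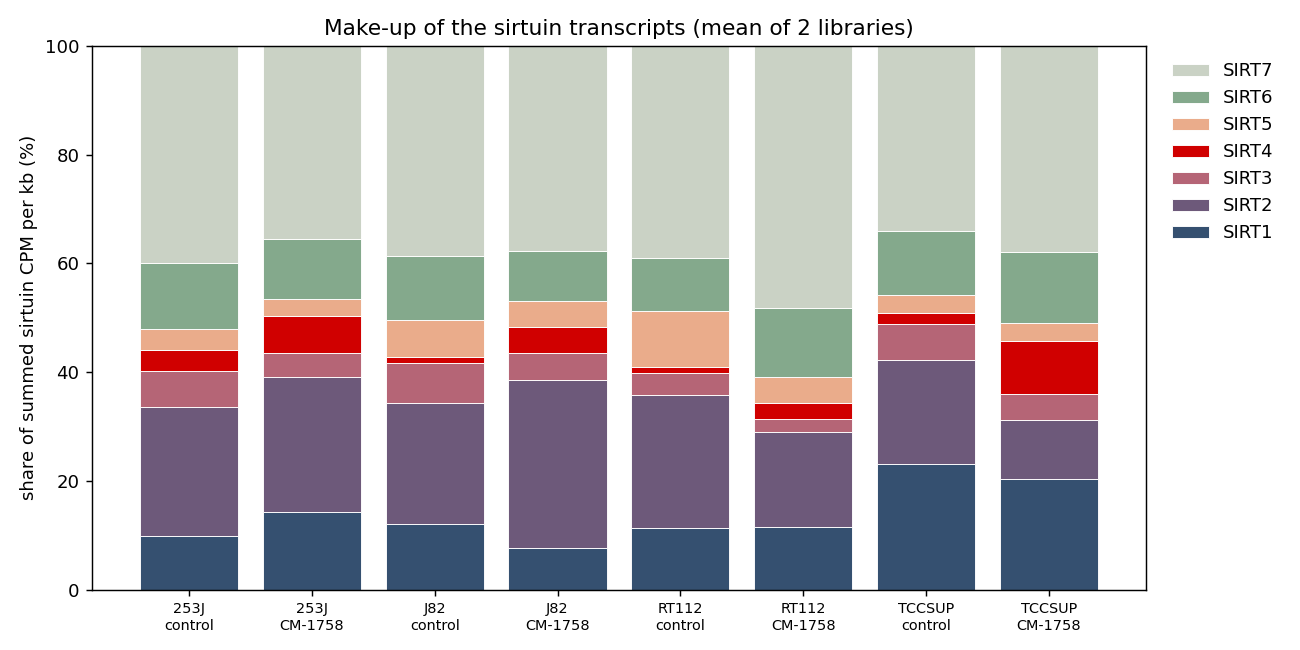
Share of each sirtuin in the summed CPM per kb of the 7 genes (percent, stacked to 100) in the 8 groups, as the mean of 2 libraries. SIRT4, in bright red, grows from 2.05% to 9.87% of the sum in TCCSUP, and SIRT7 is the largest part of every bar.

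The genes beside each sirtuin were the nearest tested RefSeq gene on each side. Some of them overlap the sirtuin, while GFOD1 and DNAJC12 lie 86674 and 46468 bases from SIRT5 and SIRT1. CREB3L3 and ANKRD24 flank SIRT6 and rose in all 4 lines. CREB3L3, a membrane-bound transcription factor of liver and gut, had 0 counts in both 253J control libraries and 31 and 47 with CM-1758, at least 12.6-fold higher against a floor of 3 counts per library. ANKRD24 rose by 2.7 in 253J, 4.18 in J82, 4.5 for RT112 and 6.19 in TCCSUP on the log2 scale (edgeR adjusted p between 1.86e-07 and 1.57e-05), from 0 to 78 counts in a control library to 81 to 559. SIRT6 between them changed by -0.2 to 0.64. DNAJC12, which lies on one side of SIRT1 and encodes a co-chaperone, rose by 1.87 in 253J, 2.03 in J82, 3.27 for RT112 and 4.96 in TCCSUP (adjusted p 2.71e-07 to 0.000139). Its control counts were low, with 8 and 8 in RT112 and 3 and 6 in TCCSUP. With CM-1758 these were 80 and 55 in RT112 and 136 and 154 in TCCSUP. HERC4, on the other side, rose in 253J (1.24 ± 0.14) and RT112 (1.34 ± 0.14), and gave -0.12 in J82 and -0.24 in TCCSUP.

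The 2 U4 small nuclear RNA genes, RNU4-2 and RNU4-1, overlap the RefSeq span of SIRT4. RNU4-2 gave log2 fold changes of 0.29, 0.05, 0.66 and -0.12 in 253J, J82, RT112 and TCCSUP, and RNU4-1 gave 0.52, 0.58, 1.21 and 0.6, all below that of SIRT4 in the same line. RNU4-1 passed the test in J82, RT112 and TCCSUP (edgeR adjusted p = 0.0433, 0.000558 and 0.0302) but not in 253J (0.0538), and its J82 call was lost with no filter on low counts (0.0605) and with J82 fitted alone (0.133). The J82 and TCCSUP calls were also lost without certain single libraries, with log2 fold changes of 0.47 without J82 control replicate 3 and 0.42 without TCCSUP control replicate 2. Whether reads were assigned by strand at this overlap is not given in the sources used here. RIC8A, which overlaps SIRT3, passed the test in no line (-0.29 to 0.28), while PSMD13, its other neighbour and a proteasome subunit, rose in 253J, RT112 and TCCSUP by 0.6 to 0.69. Each of these PSMD13 calls was lost when certain single libraries of its line were left out. The value was 0.45 without 253J control replicate 3, 0.44 without RT112 CM-1758 replicate 1 and 0.57 without TCCSUP control replicate 1. GFOD1, beside SIRT5, rose in 253J (2.55) and J82 (1.46), where SIRT5 gave 0.46 and -0.41, and gave -0.11 in RT112, where SIRT5 fell. NOL7, on its other side, gave 0.47, -0.55, -0.09 and -0.1 in the lines in the same order. RINL and NFKBIB beside SIRT2 and PCYT2 and MAFG beside SIRT7 had 0 or 1 line higher and 0 to 2 lines lower.

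**Figure D4:**
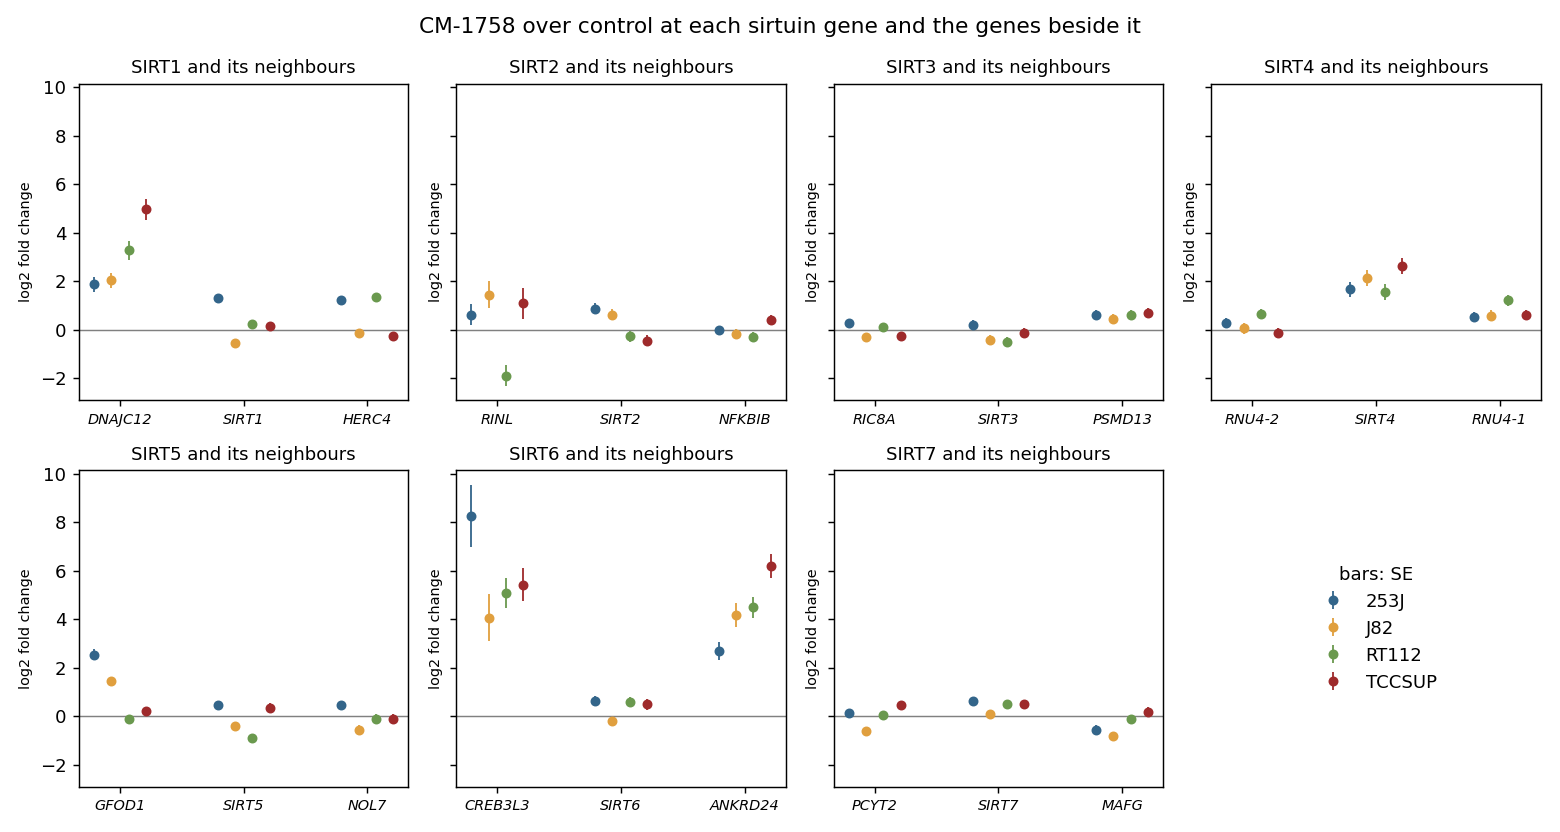
Log2 fold change of CM-1758 over control, with SE bars, for each sirtuin (middle of each panel) and the nearest tested gene on either side. Some of these genes overlap the sirtuin, and there is 1 color per cell line. The flanks of SIRT6 rise far above SIRT6 itself, and both U4 genes lie below SIRT4 in each line.

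Over the 16 libraries, the pattern of log2 CPM most like that of SIRT4 among 14209 genes was that of GS1-124K5.4 (Pearson r = 0.986), followed by ZCCHC12 (0.955). For SIRT1 these were EP400P1 (0.91) and ZNF81 (0.907), for SIRT2 COX7A2 (0.934) and DCTN3 (0.921), and for SIRT3 RBM6 (0.951) and IPO7 (0.947). SIRT5 was nearest to GGCT (0.943) and CENPV (0.921), SIRT6 to SAP30BP (0.865) and C19orf47 (0.838), and SIRT7 to TBC1D17 (0.918) and CRBN (0.912). These correlations are descriptions, since the libraries share 8 group means and the genes were picked as the highest of many.

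The genes around the family were read from lists of known regulators, NAD enzymes, other NAD users and substrates. Of 10 regulators of sirtuin expression or activity, 2 were higher and 3 lower in 253J, 0 and 4 in J82, 2 and 5 for RT112, and 2 and 3 for TCCSUP, with medians of -0.03, -0.37, -0.33 and -0.13. Over all tested genes the higher and lower shares were 28.8% and 22.4% in 253J, 24% and 18.5% in J82, 27.4% and 20.2% for RT112, and 32% and 22.1% in TCCSUP. The 5 lower in RT112 were 3 with RLE scaling, an alternative to TMM, or with library size alone. E2F1, an activator of SIRT1 transcription, fell by 2.38 in 253J, 0.99 in J82 and 1.6 in RT112 on the log2 scale (edgeR adjusted p 4.35e-07 to 0.000838), and gave 0.04 in TCCSUP (adjusted p = 0.895). SENP1, a protease that strips SUMO from SIRT1 and SIRT3, fell in 253J, J82 and TCCSUP by 0.46 to 0.88. With library size alone SENP1 lost the call in 253J (-0.19, adjusted p = 0.27) and in J82 (-0.32, 0.0742). It also lost the 253J call without 253J CM-1758 replicate 1 (0.0796) and the J82 call with J82 fitted alone (0.108) and without J82 CM-1758 replicate 3 (0.0826). PPARGC1A, the coactivator of mitochondrial biogenesis and a SIRT1 substrate, rose by 3.3 in 253J and 1.81 in TCCSUP. In RT112 it had 0 counts in both control libraries and 40 and 100 with CM-1758, at least 26.9-fold higher against a floor of 3 counts per library, and its value in J82 was 0.54 (0.27).

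Of 18 tested genes of NAD synthesis and salvage, 6 were higher and 7 lower in 253J, 5 and 7 in J82, 3 and 3 for RT112, and 3 and 5 for TCCSUP, with medians between -0.14 and 0.11. Of all tested genes, 28.8% were higher and 22.4% lower in 253J, 24% and 18.5% in J82, 27.4% and 20.2% for RT112, 32% and 22.1% in TCCSUP. The 7 lower in J82 were 3 with RLE scaling, 2 with library size alone, 3 with at least 10 counts in every library and 2 with J82 fitted alone. Without 1 J82 library they were 3 to 5, with 4 without control replicate 1, 4 without CM-1758 replicate 1 and 3 without CM-1758 replicate 3. With genes that had no count in a group at their bound or left out, the J82 median was -0.27 in place of -0.14. QPRT, which makes NAD from quinolinate, fell in 253J, J82 and TCCSUP by 1.63 to 1.85. NNMT, which methylates nicotinamide and removes it from salvage, fell by 2.93 in 253J and 3.1 in TCCSUP. In RT112 NNMT rose by 2.88, but from low counts, 6 and 11 in control and 58 and 51 with CM-1758. Its value in J82 was -0.23 (edgeR adjusted p = 0.532). KYNU, an enzyme of the kynurenine route, rose in 253J (3.38) and J82 (3.11) from 0 to 7 counts in a control library to 14 to 52. It fell in TCCSUP by 1.21, a call lost with library size alone (-0.89, 0.0737). Each of these KYNU calls was also lost when certain single libraries of its line were left out. The value was 2.39 without 253J control replicate 2, 1.9 without J82 CM-1758 replicate 1 and -0.9 without TCCSUP CM-1758 replicate 1. NMNAT3, a mitochondrial enzyme of NAD synthesis, rose in J82 by 2.39 from 17 and 22 counts to 99 and 121. In 253J its value was -0.03, in RT112 0.83, and in TCCSUP it had 0 to 4 counts in a library, too few for a fold.

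Of 18 other NAD consumers, 7 were higher and 8 lower in 253J, 2 and 10 in J82, 6 and 7 for RT112, and 6 and 8 for TCCSUP, with medians of -0.05, -0.74, -0.19 and 0. The shares of all genes, higher then lower, were 28.8% and 22.4% for 253J, 24% and 18.5% for J82, 27.4% and 20.2% for RT112 and 32% and 22.1% for TCCSUP. PARP10 and PARP3, mono-ADP-ribosyltransferases, fell in all 4 lines. The fall of PARP10 was 2.72 in 253J, 3.95 in J82, 1.67 for RT112 and 3.77 in TCCSUP (edgeR adjusted p 1.23e-06 to 0.00107), and that of PARP3 ran from 1.37 to 1.75. PARP14 and PARP9, which are induced by interferon, fell in 253J, J82 and TCCSUP, PARP14 by 2.25 to 3.46 and PARP9 by 1.02 to 2.85, and gave -0.55 and 0.44 in RT112. The 253J call of PARP9 was lost with library size alone (-0.75, edgeR adjusted p = 0.0612) and without 253J CM-1758 replicate 1 (-0.92).

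Of 29 substrates of the sirtuins, 7 were higher and 14 lower in 253J, 5 and 12 in J82, 7 and 11 for RT112, and 12 and 10 for TCCSUP, with medians of -0.43, -0.26, -0.31 and 0. Beside them, all tested genes had 28.8% higher and 22.4% lower (253J), 24% and 18.5% (J82), 27.4% and 20.2% (RT112) and 32% and 22.1% (TCCSUP). With library size alone, 5 substrates were lower in TCCSUP in place of 10. FOXO1 and FOXO4, transcription factors that SIRT1 or SIRT2 deacetylate, rose in all 4 lines. FOXO1 rose by 1.23 in 253J, 3.13 in J82, 0.9 for RT112 and 2.69 in TCCSUP (edgeR adjusted p 7.6e-08 to 0.00107), and FOXO4 by 0.87 to 2.14. The RT112 call of FOXO4 was lost without RT112 control replicate 2 (0.78) or RT112 CM-1758 replicate 1 (0.64). Genes with no count in a group weigh on some medians. With these at their bound or left out, the median of the substrates was -0.51 in J82, and those of the other NAD consumers were -0.83 in J82 and -0.4 in RT112.

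Beside the sirtuins, the 4 class I HDAC genes had 3 higher in 253J and 1 in each other line, with 0 lower. The 7 class II and IV genes had 2 higher and 1 lower in 253J, 3 and 3 in J82, 2 and 2 for RT112, and 2 and 1 for TCCSUP. The matching shares of all genes, higher and lower, were 28.8% and 22.4% (253J), 24% and 18.5% (J82), 27.4% and 20.2% (RT112), and 32% and 22.1% (TCCSUP). The higher class I gene of J82, RT112 and TCCSUP was HDAC3 (0.94, 0.43 and 0.84 on the log2 scale), which was also higher in 253J (1.44). In RT112 it was not called in 14 of 24 alternatives. The 1 higher class I gene of J82 became 2 with RLE scaling or library size alone. HDAC5 had the highest mean log2 fold change of the 11, 1.58, with a rise in 253J, J82 and RT112, and HDAC7 had the lowest, -1.95, with a fall in all 4 lines.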

How the data were processed

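The authors sequenced stranded total RNA libraries after depletion of ribosomal RNA and deposited raw counts, whole numbers of reads per gene symbol, in 1 table with no column left over. The submitters' notes name HISAT2, StringTie and GRCh37, and the counting tool is not given in the sources used here. The study's methods call the 2 libraries of each group independent biological replicates, and the labels only number them. p-values measure the spread between these libraries. No 2 libraries agreed within sampling noise (chi-square per degree of freedom 11.7 to 73.1).

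Counts of 16 libraries were filtered (filterByExpr), scaled by TMM and tested in edgeR 4.0.16 (R 4.3.3) by quasi-likelihood, 1 coefficient per group, with 8 residual degrees of freedom and a common biological coefficient of variation of 0.153. Spread is thus pooled over groups of 2. A gene was called at a Benjamini-Hochberg adjusted p under 0.05 over 21297 genes. SE was taken as the absolute log2 fold change over the root of F. CPM use TMM-scaled library sizes, with a prior count of 2 for log2 CPM, and lengths are merged exons of GENCODE (GRCh38). The steps were tested on simulated data. The members and gene lists were chosen with earlier results of these data known. The genes named are all sirtuins and, of each, the 2 RefSeq neighbours and 2 most correlated genes. From each of 4 lists come the 4 with the largest mean change. These were taken among genes called in a line and with a mean log2 CPM above 0. Also named are 2 HDAC genes, and HDAC3 as the class I gene higher in all 4 lines. Of these, 1 gene is not reported here. Alternatives included DESeq2 1.42.0. Figures were drawn with matplotlib.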

Additional observations from a re-analysis of the deposited data

Results flagged for a closer look

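The effect of CM-1758 differed between the 4 lines for 3 sirtuins by an F test of 3 interaction contrasts in edgeR, with adjusted p of 6.54e-05 for SIRT1, 0.00588 for SIRT2 and 0.00126 for SIRT5. Each was called in 23 of 23 alternative analyses, with adjusted p up to 0.000534, 0.019 and 0.00646. SIRT1 moved in opposite directions in 253J and J82, as did SIRT5 in RT112 and, without passing the test in that line alone, in 253J. SIRT6 (adjusted p = 0.0798, 0.023 to 0.314 in the alternatives) and SIRT7 (0.119, 0.0383 to 0.549) passed in 3 and 1 of 23 alternatives.

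The same test passed for many of the genes named beside the family, as it did for 51.9% of all genes. The adjusted p was 4.79e-05 for E2F1 and 0.000611 for PPARGC1A among the regulators, and 0.00386 for NMNAT3, 0.00032 for QPRT, 0.00223 for KYNU and 1.41e-06 for NNMT among the enzymes of NAD. It was 8.28e-05 for PARP9, 0.00369 for PARP10, 0.000284 for PARP14, 2.31e-05 for FOXO1, 0.03 for FOXO4, 0.000518 for HDAC5 and 0.00272 for HDAC7. Of the neighbours, it was 0.000864 for DNAJC12, 7.38e-06 for HERC4, 0.00218 for RINL, 4.27e-06 for GFOD1, 0.0251 for NOL7, 0.00244 for ANKRD24, 0.00405 for PCYT2 and 0.0164 for MAFG. Groups of 2 libraries are too small for a test of single outlying libraries.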

How the results depend on the processing

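Of 273 values of single sirtuins under other normalizations, filters and tests, 244 kept their direction and their side of the limit, and of 560 with 1 library left out, 535 did (a lone library was assumed to vary like the others). The rise of SIRT4 in each line, of SIRT1 and SIRT7 in 253J, and the fall of SIRT5 in RT112 held in all. With library size alone, J82 had 0 lower, TCCSUP 5 higher and 5 effects differed between lines, and SIRT3 reversed in TCCSUP (0.18) and in the mean (0.01), as did SIRT5 in the mean (0.1). With at least 10 counts in every library, TCCSUP had 4 higher and SIRT3 there was 0.02. With each cell line alone, J82 had 1 higher and 0 lower and TCCSUP 1 lower. The cause was not tested. With the replicate block, 253J had 3 higher (SIRT2, 0.67 with adjusted p = 0.0762, and SIRT6, 0.47 with 0.164, lost the call) and J82 2 lower (SIRT5 gained it). The replicate numbers carry no shared day in the labels, and same-numbered libraries deviated together with correlations of 0.0529 in 253J (1 shared number), 0.218 in J82, 0.0427 for RT112 and 0.0173 in TCCSUP, so they were not taken as pairs. Leaving out 1 library at a time changed how many sirtuins were called in every line and in the mean, so these counts are not firm. In those fits SIRT7 in J82 ran from -0.03 (without J82 CM-1758 replicate 3) to 0.28. SIRT3 in TCCSUP ran from -0.32 to 0.07 (without TCCSUP control replicate 1). Over all genes, the stricter filter called 3897, 3209, 3324 and 3729 higher in 253J, J82, RT112 and TCCSUP, against 6134, 5111, 5843 and 6808, having fewer genes to test. Library size alone called 3137 lower in TCCSUP against 4710, and J82 alone 2504 lower against 3933. The same alternatives were run for the other named genes and lists after seeing the data. Of 2064 values of called genes, 98 lost the call and 0 reversed, and of 1152 list counts, 77 moved by over 1.5 times. Depth limits SIRT4 most, with 19 to 51 counts in a control library.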
